A study of Mus musculus with 7 samples.

Results

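Genotype-restricted glucocorticoid receptor sites that also carried a summit without ligand were described here. They were chosen by the presence and absence of peak summits in 7 ChIP-seq lists. A site is a group of summits, from any list, with at most 200 bp between neighbours. A member lay on chromosomes 1 to 19 and had a summit of at least 1 of the 3 vehicle lists. It was held by both dexamethasone lists of one genotype and by neither of the other. Of 35316 sites in all, 33916 lay on chromosomes 1 to 19, and 15216 of these had a vehicle summit. The members numbered 1503: 500 wild-type restricted sites and 1003 Klf15-/- restricted sites.

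The libraries came from cultured fibroblasts of mouse embryos, and chromatin was immunoprecipitated with an in-house antibody to the receptor. Wild-type cells gave 1 ethanol vehicle library, pooled because starting material was scarce, and 2 libraries after 1 h of dexamethasone. Klf15-/- cells gave 2 vehicle and 2 dexamethasone libraries. All cells were grown with fetal bovine serum, and the labels do not say whether its steroids were removed, whether libraries of a group were separate cultures, or how many embryos were used. Klf15 deletion and fibroblast identity were not checked, since the lists hold no expression values.

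The glucocorticoid receptor, encoded by Nr3c1, is a nuclear receptor that is held by chaperones in the cytoplasm until a glucocorticoid binds it. The ligand-bound receptor moves to the nucleus and binds palindromic response elements, or joins other factors already on open chromatin. Dexamethasone is a synthetic glucocorticoid. KLF15 is a zinc-finger factor of the Krüppel-like family whose gene is itself induced by glucocorticoids. A summit in a vehicle list marks enriched signal in separate samples given vehicle for 1 h in place of dexamethasone. Receptor binding and receptor-independent enrichment cannot be told apart in these lists.

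List length and depth bear on every value. The vehicle lists held 5813 to 9798 autosomal sites and the dexamethasone lists 15310 to 19613, those of Klf15-/- cells being the longer. Read depth is unknown. The authors' score was used only as a percentile within its own list, from 0 to 100, and scores were often tied: the commonest score made up 2.57% to 6.88% of a list. The first Klf15-/- vehicle list stood apart, with 364 pairs of autosomal summits closer than 200 bp, where every other list had 4 or fewer. No test was made, because the members were chosen from these same lists. Intervals are exact 95% binomial (Clopper-Pearson) limits, which cover counting error only, and sites are not replicates of a genotype.

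More members were restricted to Klf15-/- cells than to wild-type cells, and these numbers come from the rule itself. The 500 wild-type restricted sites made up 3.29% of the 15216 sites with a vehicle summit, and the 1003 Klf15-/- restricted sites 6.59%. Among the 18700 sites with no vehicle summit, the same patterns of dexamethasone lists were met by 5.35% and 12.1%. The ratio of Klf15-/- to wild-type members was 2.01. With the lists of a treatment cut to equal length, counted over all chromosomes and not autosomes alone, it was 1.22. It was 9.05 without the wild-type vehicle list, which left 94 wild-type restricted sites, and 1.18 without the second Klf15-/- vehicle list, which left 566 Klf15-/- restricted sites. Leaving out any 1 of the 4 dexamethasone lists gave 751 to 889 wild-type restricted sites. The Klf15-/- restricted ones numbered 1654 without the second wild-type dexamethasone list.

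Most members had a vehicle summit in the genotype in which they were found after dexamethasone. Of the 500 wild-type restricted sites, 460 were held by the wild-type vehicle list (92.0%, 95% interval 89.3 to 94.2%). The first and second Klf15-/- vehicle lists held 43 (8.60%, 6.29 to 11.4%) and 69 (13.8%, 10.9 to 17.1%). Of the 1003 Klf15-/- restricted sites, 850 had a summit of 1 or both Klf15-/- vehicle lists (84.7%, 82.4 to 86.9%). Such a summit was also present at most of the 15216 sites with a vehicle summit, all but the 4857 held by the wild-type list alone. Of the 1003, the first Klf15-/- list held 348 (34.7%, 31.7 to 37.7%) and the second 719 (71.7%, 68.8 to 74.5%). The wild-type vehicle list held 285 (28.4%, 25.6 to 31.3%), a share that was 16.1% in lists of equal length and 50.4% without the second Klf15-/- vehicle list. Over all 15216 sites with a vehicle summit, the wild-type list held 64.4%, the first Klf15-/- list 38.2% and the second 50.4%. The wild-type list thus held more of the wild-type restricted sites than of all sites, and the second Klf15-/- list more of the Klf15-/- restricted ones, while the first Klf15-/- list held slightly fewer of its own. Among 6122 sites with a vehicle summit and all 4 dexamethasone lists, the 3 vehicle lists held 86.8%, 45.3% and 69.1%.

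The rule requires some vehicle summit, so these shares lean on each other. The same shares were therefore taken over all restricted sites, with or without a vehicle summit, where holding by a vehicle list is not part of the rule. Vehicle summits still entered the linkage that forms the sites, and members must still be absent from both dexamethasone lists of the other genotype. Only 14.2%, 29.4% and 14.1% of the sites of the wild-type and the 2 Klf15-/- vehicle lists had no dexamethasone summit. A low share in the other genotype's vehicle lists is therefore partly set by the rule. The wild-type vehicle list held 30.6% (28.3 to 33.0%) of 1501 wild-type restricted sites and 8.74% (7.79 to 9.76%) of 3260 Klf15-/- restricted sites. In the first Klf15-/- vehicle list the shares were 2.86% (2.08 to 3.84%) and 10.7% (9.64 to 11.8%). In the second they were 4.60% (3.59 to 5.78%) and 22.1% (20.6 to 23.5%). Each of the 3 vehicle lists thus held a larger share of the sites restricted to its own genotype than of those restricted to the other. The intervals did not overlap, but they cover counting error only and not variation between libraries, and wild type had 1 vehicle library. Over all 33916 autosomal sites the shares were 28.9%, 17.1% and 22.6%. The own-genotype shares were near these in the wild-type and second Klf15-/- lists and below in the first Klf15-/- list, while the other-genotype shares were below in every list. The sites in all 4 dexamethasone lists were held more often than either restricted class, at 60.1%, 31.4% and 47.9%.

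**Figure D1:**
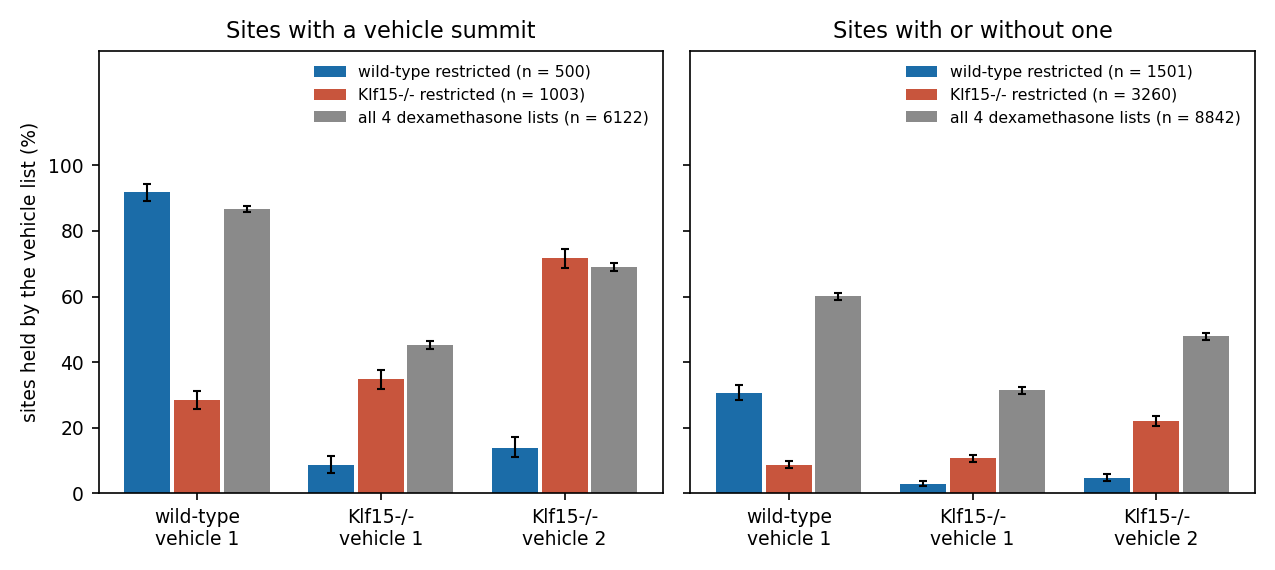
Share of the sites of each class (y axis, percent) held by each vehicle list (x axis); bars are shares and whiskers exact 95% binomial intervals for counting error. On the left, among sites with a vehicle summit, the wild-type vehicle list held 92.0% of wild-type and 28.4% of Klf15-/- restricted sites; on the right, with no vehicle summit required, the shares were 30.6% and 8.74%.

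Seen from the vehicle lists, restricted sites were a small part of what each list held. In the wild-type vehicle list, 4.69% (4.28 to 5.13%) of 9798 sites were wild-type restricted and 2.91% (2.58 to 3.26%) were Klf15-/- restricted. The order was opposite in the Klf15-/- lists. The first held 0.740% (0.536 to 0.995%) wild-type restricted and 5.99% (5.39 to 6.63%) Klf15-/- restricted sites among 5813. The second held 0.900% (0.701 to 1.14%) and 9.38% (8.74 to 10.1%) among 7663.

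The combinations of vehicle lists account for every member. Of the wild-type restricted sites, 405 were held by the wild-type vehicle list alone, 15 by the first Klf15-/- vehicle list alone, 20 by the second alone and 5 by both of those. Another 11 were held by the wild-type list and the first Klf15-/- list, 32 by the wild-type list and the second, and 12 by all 3. Of the Klf15-/- restricted sites, 105 were held by the first Klf15-/- vehicle list alone, 434 by the second alone and 179 by both. A further 153 were held by the wild-type vehicle list alone, 26 by it and the first Klf15-/- list, 68 by it and the second, and 38 by all 3. Vehicle summits of both genotypes were thus found at 55 wild-type restricted sites (11.0%) and 132 Klf15-/- restricted sites (13.2%). They were more common over all 15216 sites with a vehicle summit. There the wild-type list shared 556 sites with the first Klf15-/- list alone, 1892 with the second alone and 2493 with both. At the 6122 sites of all 4 dexamethasone lists these combinations made up 4.98%, 22.7% and 35.3%, each above its share in either member class.

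Where the wild-type vehicle list had no summit, sites in both Klf15-/- vehicle lists were Klf15-/- restricted more often than sites in one of them. Of the 624 sites held by both Klf15-/- vehicle lists and not the wild-type one, 179 were Klf15-/- restricted (28.7%, 25.2 to 32.4%) and 5 wild-type restricted (0.801%, 0.261 to 1.86%). Of the 2654 held by the second Klf15-/- vehicle list alone, 434 were Klf15-/- restricted (16.4%). Of the 2140 held by the first alone, the number was 105 (4.91%, 4.03 to 5.91%), and 73.1% of those 2140 had no dexamethasone summit. Sites held by the wild-type vehicle list alone were wild-type restricted in 405 of 4857 cases (8.34%, 7.58 to 9.15%) and Klf15-/- restricted in 153 (3.15%, 2.68 to 3.68%). With a wild-type vehicle summit the order was opposite. The Klf15-/- restricted share was 4.68% (3.08 to 6.78%) of 556 sites that also had the first Klf15-/- vehicle list alone, 3.59% (2.80 to 4.53%) of 1892 with the second alone and 1.52% (1.08 to 2.09%) of 2493 with both. Sites held by all 3 vehicle lists were rarely restricted: 12 of these 2493 to wild type (0.481%) and 38 to Klf15-/- cells, while 86.8% were in all 4 dexamethasone lists.

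The rank of the vehicle summit also differed by genotype in 2 of the 3 vehicle lists. In the wild-type vehicle list the median percentile was 47.9 at 460 wild-type restricted sites and 32.4 at 285 Klf15-/- restricted sites. In the second Klf15-/- vehicle list it was 30.9 at 69 wild-type restricted and 41.2 at 719 Klf15-/- restricted sites. The quartiles overlapped widely in both lists. In the first Klf15-/- vehicle list the medians were 50.5 (43 sites) and 49.4 (348 sites), against 50.9 at sites of all 4 dexamethasone lists, so rank in that list separated none of these classes. In the other lists the sites of all 4 dexamethasone lists ranked highest, with medians of 67.6 and 63.8, and vehicle sites with no dexamethasone summit lowest, at 21.7 in each.

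**Figure D2:**
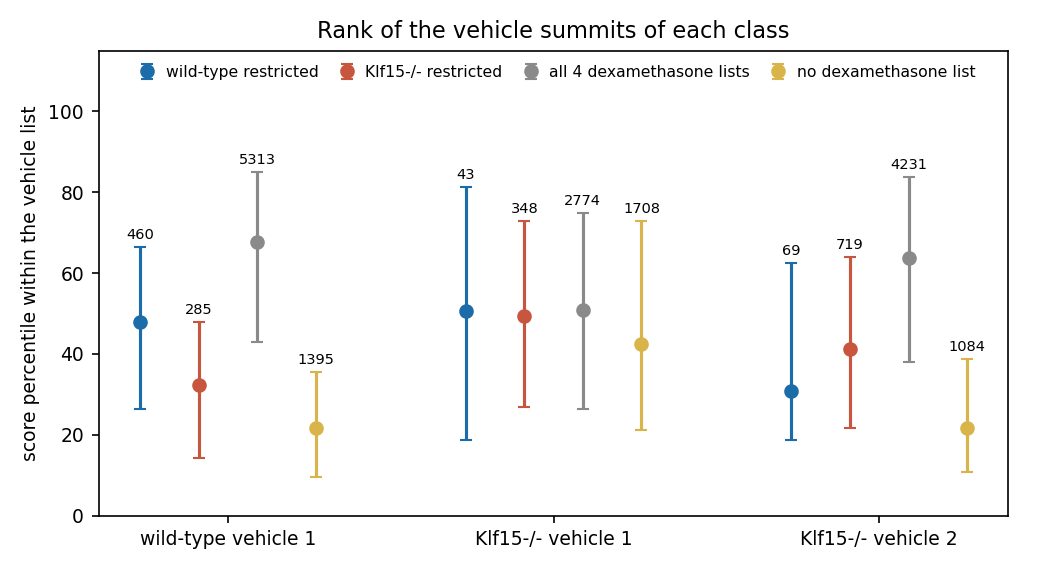
Score percentile of the vehicle summit within its own list (y axis) for 4 classes of site in the 3 vehicle lists (x axis); points are medians, whiskers the lower and upper quartiles, and the number above each is the sites of the class in that list. Restricted sites ranked higher in a vehicle list of their own genotype in wild-type vehicle 1 (47.9 against 32.4) and Klf15-/- vehicle 2 (41.2 against 30.9), and alike in Klf15-/- vehicle 1.

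The strongest wild-type vehicle summits hardly ever fell on a Klf15-/- restricted site. In the top quintile of the wild-type vehicle list by score, 44 of 1966 sites were wild-type restricted (2.24%, 1.63 to 2.99%) and 1 was Klf15-/- restricted (0.0509%, 0.00129 to 0.283%), while 89.2% were in all 4 dexamethasone lists. In the lowest quintile the numbers were 77 and 82 of 1769 (4.35% and 4.64%). In the top quintile of the second Klf15-/- vehicle list, 7 of 1510 sites were wild-type restricted (0.464%, 0.187 to 0.953%) and 84 Klf15-/- restricted (5.56%, 4.46 to 6.84%). Its lowest quintile gave 19 and 163 of 1550 (1.23% and 10.5%). Not every share fell steadily between these quintiles. In the wild-type vehicle list the wild-type restricted share was highest in quintile 3 (6.56%). In the second Klf15-/- vehicle list the Klf15-/- restricted share was highest in quintile 2 (12.1%). The first Klf15-/- vehicle list had no lower share in its top quintile than in its lowest. Its lowest and top quintiles held 1.02% and 1.10% wild-type restricted sites, and 4.66% (3.53 to 6.02%) and 6.78% (5.30 to 8.52%) Klf15-/- restricted sites.

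After dexamethasone the members were mid-ranked, and few were strong. These values helped to choose the members and are given as a description. Wild-type restricted sites had median percentiles of 44.3 and 47.0 in the first and second wild-type dexamethasone lists, from 0.0896 to 98.0 and from 0.00295 to 97.1. Klf15-/- restricted sites had medians of 50.3 and 49.7 in the Klf15-/- lists, from 0.178 to 99.1 and from 0.288 to 98.5. Restricted sites with no vehicle summit ranked lower, at 34.2 and 35.1 in the wild-type lists and at 36.2 and 36.0 in those of Klf15-/- cells. Sites of all 4 dexamethasone lists with a vehicle summit ranked higher, with medians of 71.2 to 76.8. The Klf15-/- restricted sites held by both Klf15-/- vehicle lists, 217 in number, had medians of 64.0 and 63.5.

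Of the vehicle-held sites above percentile 80 in both wild-type dexamethasone lists, 16 of 1891 were wild-type restricted (0.846%, 0.484 to 1.37%). The corresponding number for Klf15-/- cells was 48 of 2319 (2.07%, 1.53 to 2.74%). Above percentile 90 the numbers were 4 of 921 (0.434%) and 13 of 1144 (1.14%).

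Sites just outside the rule had nearly the ranks of the members. With both wild-type and exactly 1 Klf15-/- dexamethasone list there were 707 vehicle-held sites, with median percentiles of 46.6 and 48.3 in the wild-type lists and 36.2 in the single Klf15-/- list. With both Klf15-/- and exactly 1 wild-type list there were 1088, with medians of 53.8 and 54.7 in the Klf15-/- lists and 31.2 in the single wild-type list. Just inside the linkage limit, 28 wild-type and 28 Klf15-/- restricted sites had a dexamethasone summit of the other genotype no more than 400 bp away. Their medians were 53.7 and 49.9 in the wild-type lists and 39.0 and 43.7 in the Klf15-/- lists.

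The highest-ranked wild-type restricted site lay on chromosome 13 (mm9, 32829126 to 32829185). It stood at percentiles 98.0 and 97.1 in the wild-type dexamethasone lists and 87.2 in the wild-type vehicle list, and Klf15-/- dexamethasone summits came no nearer than 15.4 kb. The second, on chromosome 2 (139926930 to 139926967), stood at 96.3 and 94.9, had its only vehicle summit in the first Klf15-/- list (37.6), and lay 248 bp from a Klf15-/- dexamethasone summit. The third, on chromosome 9 (55725773 to 55725837), stood at 91.3 and 93.4, and at 64.7 with vehicle, and was 230 kb from the nearest Klf15-/- dexamethasone summit. These sites differed both in how close the other genotype's summits came and in which genotype had the vehicle summit.

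The fourth lay near the start of the assembled chromosome 9 (3002118 to 3002218). It was held by all 3 vehicle lists, at 96.3 in wild type and 90.3 and 98.4 in Klf15-/- cells, and by the wild-type dexamethasone lists at 92.3 and 91.2. It was absent from both Klf15-/- dexamethasone lists, whose nearest summit was 1.28 kb away. Strong vehicle summits of the other genotype therefore did occur at a restricted site. Wild-type restricted sites at 3017976 to 3018046 and 3022135 to 3022172 lay nearby and were also held by both Klf15-/- vehicle lists. No regions of the autosomes were filtered out, and receptor-independent enrichment at this place was not tested.

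The fifth named wild-type restricted site lay on chromosome 3 (65239579 to 65239605) and the next on chromosome 10 (69485478 to 69485530). After these came a site on chromosome 17 (79705296 to 79705328) and another on chromosome 13 (50103123 to 50103189). The last of the 10 were found on chromosome 6 (119653598 to 119653673) and, spanning 3 bp, on chromosome 4 (94763740 to 94763742). These 6 were held by the wild-type vehicle list alone among vehicle lists, at percentiles from 35.6 on chromosome 13 to 95.6 on chromosome 17. Of the 10 named sites, 4 had a Klf15-/- dexamethasone summit within 1 kb and 2 had none within 100 kb.

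The highest-ranked Klf15-/- restricted site lay on chromosome 8 (65814008 to 65814147), at percentiles 98.7 and 98.5 in the Klf15-/- dexamethasone lists. It was held by the second Klf15-/- vehicle list (90.1) and not by the first, and the nearest wild-type dexamethasone summit was 685 kb away. The second, on chromosome 17 (36621691 to 36621816), was held by all 4 Klf15-/- lists, at 98.6 and 99.5 with vehicle and 99.1 and 98.4 with dexamethasone, and by no wild-type list. Its nearest wild-type dexamethasone summit was 253 kb away. The third, on chromosome 6 (84485046 to 84485205), stood at 97.7 and 95.9 after dexamethasone but at 20.1 in the single vehicle list that held it. High rank with ligand thus went with both high and low rank without it.

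The fourth, on chromosome 2 (139926558 to 139926682), was the neighbour of the second-ranked wild-type restricted site and is described with the pairs. The fifth, on chromosome 13 (4560536 to 4560695), stood at 95.6 and 96.0, and at 96.5 and 98.8 with vehicle. Next came a site on chromosome 16 (30956509 to 30956525) and one on chromosome 11 (10698061 to 10698202). The last 3 were on chromosome 10 (55136590 to 55136755) and, as a pair far apart, chromosome 1 (17479455 to 17479795 and 45662572 to 45662598). The sites on chromosomes 11 and 10 and the first on chromosome 1 were 1023, 1052 and 882 kb from any wild-type dexamethasone summit, and all 3 were held by both Klf15-/- vehicle lists. Of the 10 named sites, 6 were held by both Klf15-/- vehicle lists, 1 by the wild-type vehicle list, and 5 had no wild-type dexamethasone summit within 100 kb.

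Some members had a vehicle summit in the other genotype alone: 40 wild-type restricted sites (8%, 5.78 to 10.7%) and 153 Klf15-/- restricted sites (15.3%, 13.1 to 17.6%). These sites had a summit in the other genotype without ligand and none with it. The wild-type share was 5.14% when Klf15-/- vehicle list 1 was left out, 4.16% when list 2 was, and 12.7% without the first wild-type dexamethasone list. The Klf15-/- share was 39.0% without the second Klf15-/- vehicle list and 7.55% in lists of equal length. The 40 had median percentiles of 32.9 and 39.8 in the wild-type dexamethasone lists, against 45.7 and 47.3 for the other 460. The 153 had medians of 36.2 and 34.5 in the Klf15-/- lists, against 53.1 and 51.7 for the other 850. Such vehicle patterns were more common over all 15216 sites with a vehicle summit. The wild-type vehicle list alone held 4857 of those. It held 64.4% in all, and the rest had Klf15-/- vehicle summits alone. At sites of all 4 dexamethasone lists the wild-type vehicle list alone held 1456 of 6122 (23.8%). Both member shares were thus below those over all sites.

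The first 2 of these wild-type restricted sites by rank were the one on chromosome 2 given before and one on chromosome 6 (39193555 to 39193688; 82.8 and 84.2, and 48.6 in the first Klf15-/- vehicle list). The next lay on chromosome 6 (17065060 to 17065076 and 59315403 to 59315456) and on chromosome 2 (90383030 to 90383112). The latter was held by both Klf15-/- vehicle lists at 74.6 and 70.7. On the Klf15-/- side the first was on chromosome 4 (86545057 to 86545091), at 88.0 and 87.7 after dexamethasone and 50.04 in the wild-type vehicle list. The next was on chromosome 15 (75297045 to 75297100). Another 2 were on chromosome 2 (167093380 to 167093437 and 16172662 to 16172721), and 1 was on chromosome 11 (117180264 to 117180363). Their wild-type vehicle percentiles were lower, from 17.1 to 43.2.

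The members held by all 3 vehicle lists included some with strong summits in vehicle lists of both genotypes. On the wild-type side these were, after the site at the start of chromosome 9, sites on chromosome 3 (64218369 to 64218381; 89.4, 95.0 and 82.7 in the wild-type and the 2 Klf15-/- vehicle lists) and chromosome 1 (104524854 to 104524858; 97.8, 95.6 and 54.7). The nearest Klf15-/- dexamethasone summits were 450 and 916 kb away. On the Klf15-/- side a site on chromosome 8 (14306822 to 14306873) stood at 72.3, 95.1 and 96.5, and a wild-type dexamethasone summit lay 354 bp away. Others stood low in the wild-type vehicle list, such as those on chromosome 2 (81040793 to 81040919) and chromosome 12 (30866466 to 30866614), each at 9.47.

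The distance to the nearest dexamethasone summit of the other genotype ranged from just past the linkage limit to megabases. The median was 13.7 kb (quartiles 3.11 and 40.8 kb) for wild-type restricted and 31.8 kb (7.94 and 101.3 kb) for Klf15-/- restricted sites. The Klf15-/- dexamethasone lists were the longer ones, and the part of list length in these distances was not tested. Among restricted sites with no vehicle summit the medians were 11.6 and 22.0 kb. A summit of the other genotype lay within 1 kb of 65 wild-type restricted sites (13.0%, 10.2 to 16.3%) and 71 Klf15-/- restricted sites (7.08%, 5.57 to 8.85%). With no vehicle summit the numbers were 85 of 1001 (8.49%, 6.84 to 10.4%) and 145 of 2257 (6.42%, 5.45 to 7.52%).

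Members with a vehicle summit of the other genotype alone lay closer to that genotype's dexamethasone summits. Their medians were 4.67 kb in wild type (n = 40), against 14.4 kb for members with a same-genotype vehicle summit, and 13.5 kb in Klf15-/- cells (n = 153), against 36.3 kb. Within 1 kb the numbers were 9 of 40 (22.5%, 10.8 to 38.5%) against 56 of 460 (12.2%, 9.33 to 15.5%), and 20 of 153 (13.1%, 8.17 to 19.5%) against 51 of 850 (6%, 4.50 to 7.81%). The first pair of intervals overlapped.

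At the far end, 51 Klf15-/- restricted sites (5.08%, 3.81 to 6.63%) had no wild-type dexamethasone summit within 500 kb, against 3 wild-type restricted sites (0.600%, 0.124 to 1.74%) in the reverse direction. Restricted sites with no vehicle summit differed in the same way, with 79 of 2257 (3.50%, 2.78 to 4.34%) against 3 of 1001 (0.300%, 0.0618 to 0.873%). Some of the 51 lay together in the same gap between wild-type dexamethasone summits, as at 10697023 to 10905716 on chromosome 11. They are therefore not independent counts. These 51 lay on 12 chromosomes and 23 were held by both Klf15-/- vehicle lists. They ranked higher than the other 952, with medians of 68.5 and 63.8 against 49.0 and 48.7 in the Klf15-/- dexamethasone lists, and 71.8 and 67.4 against 47.7 and 41.2 in the Klf15-/- vehicle lists that held them.

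**Figure D3:**
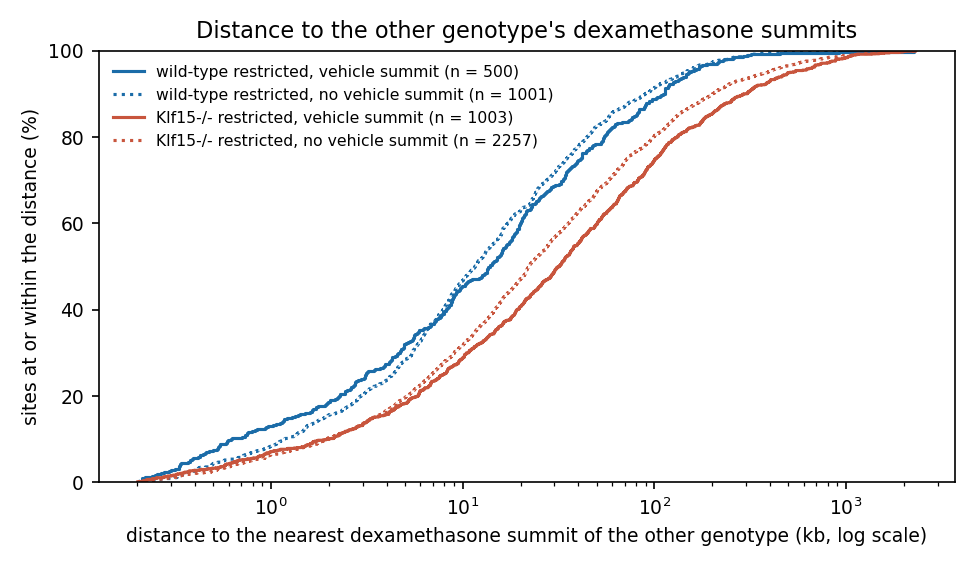
Cumulative share of restricted sites (y axis, percent) by distance to the nearest dexamethasone summit of the other genotype (x axis, kb, log scale), with and without a vehicle summit; each step is 1 site. The Klf15-/- restricted curves lie to the right, with medians of 31.8 and 22.0 kb against 13.7 and 11.6 kb.

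In 7 places a wild-type and a Klf15-/- restricted site were neighbours within 1 kb, with gaps of 239 to 588 bp. The clearest was on chromosome 2. At 139926930 to 139926967 the wild-type dexamethasone summits stood at percentiles 96.3 and 94.9. At 139926558 to 139926682, 248 bp before it, the Klf15-/- dexamethasone summits stood at 95.8 and 97.7. The vehicle summit of wild-type cells was on the Klf15-/- side, at 91.5, and so was that of the second Klf15-/- vehicle list, at 90.4. The first Klf15-/- vehicle list had a weaker summit on each side, at 13.3 and 37.6. This was the only Klf15-/- restricted site in the top quintile of the wild-type vehicle list.

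Another pair, on chromosome 4, paired dexamethasone summits of 82.2 and 84.5 in wild type (86545424 to 86545490) with 88.0 and 87.7 in Klf15-/- cells (86545057 to 86545091). The wild-type vehicle list had a summit on each side, at 91.4 and 50.04, and the second Klf15-/- vehicle list had 1 on the wild-type side, at 49.7. The same arrangement, with wild-type vehicle summits on both sides and a Klf15-/- vehicle summit on the wild-type side alone, was found in 3 of the 7 pairs. Over the 7 pairs the wild-type vehicle list had a summit at both sites in 3, at the wild-type restricted site alone in 2 and at the Klf15-/- restricted site alone in 2. For the Klf15-/- vehicle lists together the numbers were 2, 3 and 2. At these places both genotypes had signal close together, and the rule separated them by the position of the summit.

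**Figure D4:**
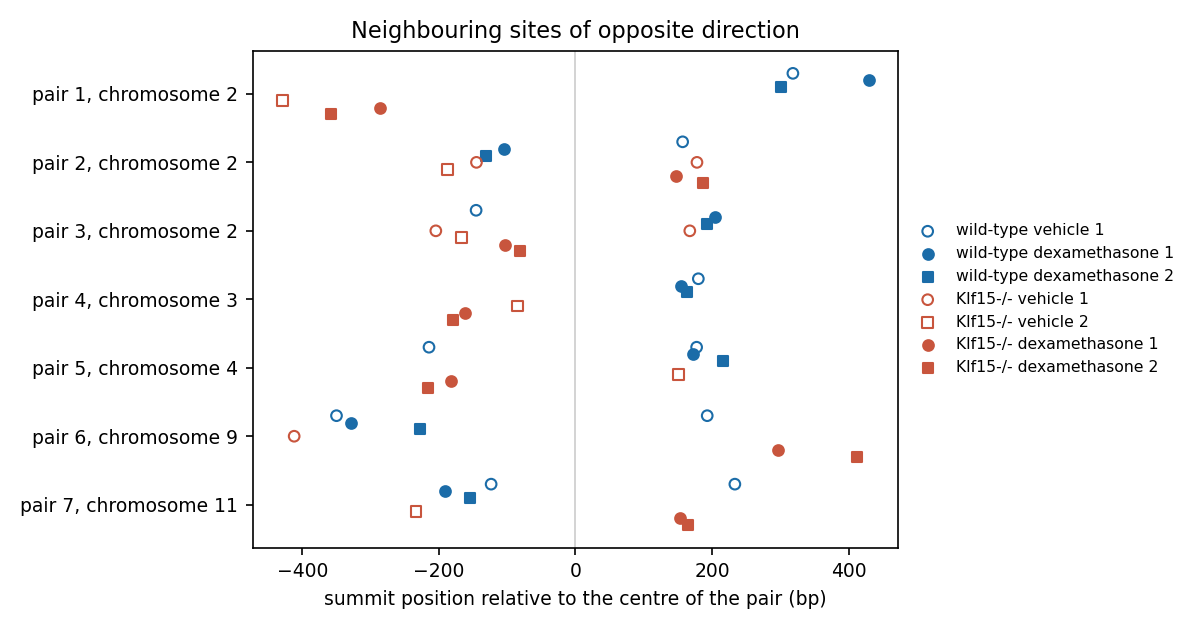
Summit positions (x axis, bp from the centre of each pair) at the 7 pairs of neighbouring restricted sites (rows), by library; blue is wild type, red Klf15-/-, filled symbols dexamethasone and open symbols vehicle. Filled symbols of the genotypes lie on opposite sides in every pair, as the rule requires, while open symbols of a genotype lie on either side.

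Within members, vehicle and dexamethasone summits lay close together. The 2 dexamethasone summits of a member were a median of 41 bp apart in each direction. The wild-type vehicle summit lay a median of 36.5 bp (460 sites) from the mean of the wild-type dexamethasone summits. The second Klf15-/- vehicle summit lay 47.5 bp (719 sites), and the first 64.8 bp (348 sites), from the mean of the Klf15-/- dexamethasone summits. At sites of all 4 dexamethasone lists the corresponding medians were 37, 41 and 65 bp. The larger offset of the first Klf15-/- vehicle list was thus not particular to the members.

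The members were spread over all 19 autosomes, but unevenly by direction. Chromosomes 8, 10, 15, 17 and 19, known from earlier results to hold a larger share of summits in the wild-type lists, carried 36.6% (32.4 to 40.99%) of wild-type restricted sites and 15.8% (13.6 to 18.2%) of Klf15-/- restricted sites. They carried 25.1% of all sites with a vehicle summit and 26.1% of those in all 4 dexamethasone lists. Every list showed the same split: 27.0% to 27.4% of autosomal summits in the 3 wild-type lists and 23.0% to 23.2% in the 4 Klf15-/- lists. The part of this imbalance in the restricted sites was not tested. Without these chromosomes 317 wild-type and 845 Klf15-/- restricted sites were left, a ratio of 2.67. The wild-type vehicle list then held 92.7% and 27.0% of them, close to the shares over all autosomes.

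By single chromosome, wild-type restricted sites outnumbered Klf15-/- restricted ones on 3 of 19: 47 against 36 on chromosome 10, 35 against 28 on chromosome 15 and 28 against 15 on chromosome 19. The ratio was lowest on chromosome 19 (0.536) and highest on chromosome 12, with 12 against 57 sites (4.75). Chromosome 1 held the most Klf15-/- restricted sites, 103 (10.3%, 8.46 to 12.3%), against 7.10% of all sites with a vehicle summit.

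**Figure D5:**
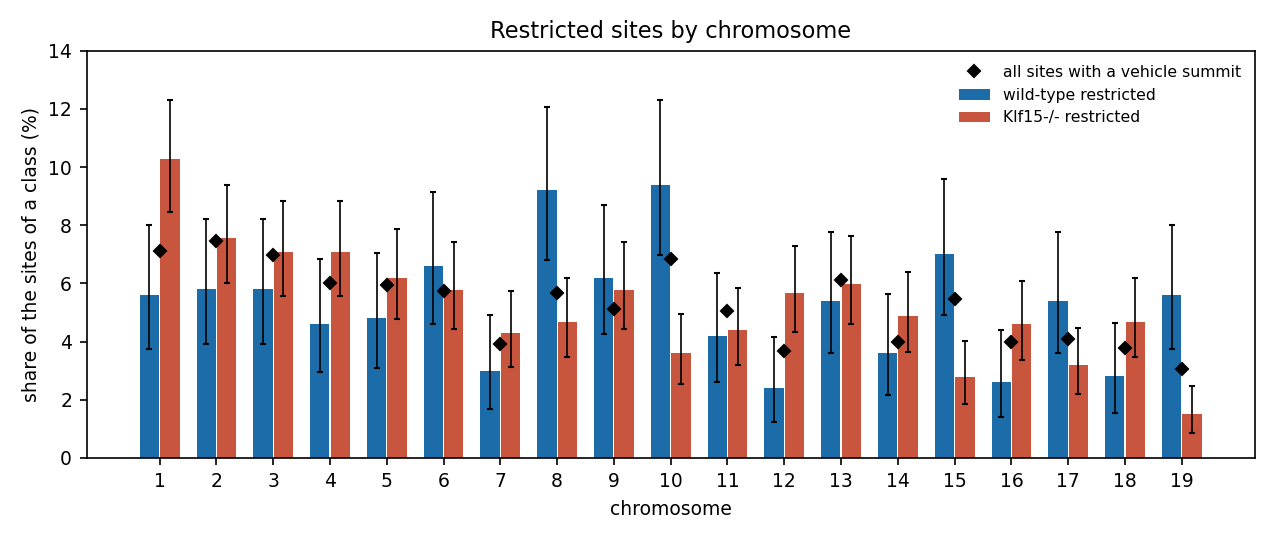
Share of the 500 wild-type and 1003 Klf15-/- restricted sites (bars, percent, with exact 95% binomial intervals for counting error) on each autosome (x axis); diamonds give all 15216 sites with a vehicle summit. Wild-type bars exceed the diamonds and Klf15-/- bars fall below them on chromosomes 8, 10, 15, 17 and 19. These were singled out because the wild-type lists of these same data hold a larger share of summits there. The interval includes the diamond for wild type on chromosomes 15 and 17 and for Klf15-/- on chromosomes 8 and 17.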

How the data were processed

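Each of the 7 deposited files lists the peak summits of 1 library, 1 bp wide, with a score that the authors' peak caller gave on a scale that is not stated. Per the submitters' processing notes, CASAVA 1.4, Bowtie2 2 and SAMtools were used with the mm9 build. The peak caller, its threshold and any control library were not given in the sources used here. Coordinates are mm9, counted from 1.

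Summits were linked at gaps of at most 200 bp. A percentile is the rank of a score in its list, ties averaged, and a site took its highest. Tables were made with pandas 2.3.3 and numpy 2.4.6 in Python 3.11.15, intervals with scipy 1.17.1 and plots with matplotlib 3.10.9; linkage was tested on simulated lists. Samples were grouped by their titles. The members, alternatives and naming rule were chosen with earlier results of these data known. The rule named 10 sites per direction by their lower dexamethasone percentile, and up to 5 each of those with a vehicle summit of the other genotype alone or of all 3 lists. The neighbouring pairs, and chromosomes or runs singled out, were chosen after the values were seen. Genes, motifs and sequences are not analysed here.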

Additional observations from a re-analysis of the deposited data

Results flagged for a closer look

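Outside chromosomes 1 to 19, where no comparison was made, the same pattern of lists was met by 89 Klf15-/- restricted and 15 wild-type restricted sites on chromosome X, among 771 sites with a vehicle summit. On chromosome Y it was met by 51 Klf15-/- restricted and 0 wild-type restricted sites among 186. Both were flagged because the Klf15-/- number exceeded the wild-type one in data that the members leave out. Such an excess was not particular to them, since it was also met on 16 of 19 autosomes. Over autosomal sites with a vehicle summit, 6.59% were Klf15-/- restricted and 3.29% wild-type restricted. The sample titles do not give the sex of the embryos, and its part in these numbers was not tested.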

How the results depend on the processing

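The alternatives gave 87 values: 43 lay within the limits set for them (1.5 times for counts, the 95% binomial interval otherwise) and 44 beyond, while no ratio fell below 1. With the lower-scored part of each list removed at its median, the wild-type and Klf15-/- restricted sites numbered 302 and 558. The wild-type vehicle list then held 94.7% of the former, and Klf15-/- vehicle lists alone 5.30%. In lists of equal length the ratio was 1.22, the wild-type vehicle list held 88.1% of wild-type and 16.1% of Klf15-/- restricted sites, and the other genotype alone held 11.9% and 7.55%. A linkage gap of 100 bp gave a ratio of 1.76. Leaving out chromosomes 8, 10, 15, 17 and 19 gave 317 wild-type restricted sites and a ratio of 2.67. The cause of these moves was not tested.

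Leaving out each library in turn gave 94 to 889 wild-type restricted sites, 566 to 1654 Klf15-/- restricted sites and ratios from 1.18 to 9.05. The wild-type vehicle list held 87.3% to 95.8% of wild-type and 31.9% to 50.4% of Klf15-/- restricted sites. The other genotype alone held 4.16% to 12.7% and 19.2% to 39.0%. Without the wild-type vehicle list these shares have no value. Fewer lists that must lack a site, or fewer that must hold it, give more members by construction. Planned work on motifs and gene starts was not run. No paired analysis was possible because the results come from no test. Read depth is unknown, so a missing summit does not show missing occupancy.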

Other observations

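Some Klf15-/- restricted sites lay in runs with no wild-type dexamethasone summit between them, a feature singled out after the values were seen. Of 1003, 784 stood alone, and 70 runs of 2, 19 runs of 3, 3 runs of 4 and 2 runs of 5 were found. Among the 500 wild-type restricted sites, 461 stood alone, with 16 runs of 2, 1 run of 3 and 1 of 4. The densest run of 4 lay on chromosome 2 (27353426 to 27358165), within 4.74 kb, and all its sites were held by both Klf15-/- vehicle lists and not by the wild-type one. Another run of 4, on chromosome 11 (10697023 to 10905716), spanned 209 kb with the same vehicle pattern. The runs of 5 lay on chromosome 18 (7319849 to 7512612, 193 kb) and chromosome 7 (63780787 to 65698944, 1918 kb). The wild-type run of 4 lay on chromosome 7 (143454378 to 143634496), and the wild-type vehicle list held all its sites. The Klf15-/- dexamethasone lists were the longer ones and Klf15-/- restricted sites the more numerous. The part of list length and of site number in the runs was not tested.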
